A study of Mus musculus with 8 samples.

Results

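MHC class I antigen presentation was examined in E-cadHI and E-cadLO tumor cells of mouse breast cancer brain metastases (BCBM), through the transcripts of 10 genes chosen by name: H2-K1, H2-D1, H2-T23, B2m, Tap1, Tap2, Tapbp, Psmb8, Psmb9 and Nlrc5. These were 10 of the 31894 genes with an identifier in the count table, each name matched 1 entry, and all 10 were among the 13598 genes expressed highly enough to be tested. Tumor cells carrying an E-cadherin reporter (PyMT E-cad-mCFP) were injected as brain-adapted organoid cells into the brains of female FVB mice, and the tumors of 4 mice, numbered 57, 58, 67 and 70, were each sorted by FACS into an E-cadHI and an E-cadLO population. The labels give strain FVB, genotype wild type and breast cancer as disease for all 8 bulk mRNA libraries, with brain metastasis tumor as tissue. PyMT is a mammary oncogene, and all tumors came from a single serially transplanted model, so the 4 mice are separate hosts of related tumor cells. The purity of the sort was assessed by the study on E-cadHI cells only, because E-cadLO cells were scarce. Total counts per library were between 9102781 (E-cadLO of mouse 58) and 15769200 (E-cadLO of mouse 70), and a floor of 3 counts corresponded to between 0.202 and 0.349 CPM, counts scaled to library size with TMM (trimmed mean of M-values). Cdh1, which encodes E-cadherin and was read as a check of the groups, stood at 114, 132, 93.5 and 108 CPM in E-cadHI of mice 57, 58, 67 and 70 and at 71.6, 181, 84.5 and 59.2 CPM in E-cadLO. Cdh1 mRNA was thus lower in E-cadLO in mice 57, 67 and 70, but E-cadLO of mouse 58 had the highest level of all 8 libraries, and the log2 fold change was -0.17 (SE 0.33; edgeR adjusted p = 0.809). This library of mouse 58 also stood apart in several class I genes and in its share of counts on Gm42418 (14.4%, against 2.23% to 7.67% in the other 7 libraries). Mitochondrial transcripts held 1.75%, 4.07%, 1.84% and 4.70% of counts in E-cadHI of mice 57, 58, 67 and 70. In E-cadLO the share was higher in all 4 mice, at 1.88%, 5.32%, 4.61% and 7.16%. A fit without these genes and Gm42418 is given below, and no other part of this share in the results was tested.

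Class I molecules display fragments of a cell's own proteins to CD8 T cells. The proteasome cuts proteins into peptides, the TAP transporter moves the peptides into the endoplasmic reticulum (ER), and tapasin helps to load them onto a heavy chain paired with beta-2 microglobulin. Interferons raise the transcription of most genes of this route, with Nlrc5 acting as a transactivator of class I genes, and tumor cells that lower this route can be less visible to T cells. The question addressed was whether the route differed between tumor cells with high and low E-cadherin of the same tumor.

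None of the 10 genes passed the test between the populations, yet 9 of the 10 had a negative log2 fold change of E-cadLO against E-cadHI, with a median of -0.33 over the 10 genes. This median depended on single mice: it was -0.11 without mouse 57, -0.61 without mouse 58 and -0.54 without only the E-cadLO library of mouse 58. With Gm42418 and the mitochondrial genes removed before scaling it was -0.30. Among all genes tested, 44.9% had a negative log2 fold change and the median was 0.06. Psmb8, a catalytic subunit of the immunoproteasome, had the lowest log2 fold change of the 10 genes, -0.74, and Nlrc5 the highest, 0.00. Adjusted p-values from the quasi-likelihood test of edgeR (adjusted by Benjamini-Hochberg over all genes tested) were between 0.298 and 1 for the 10 genes. In bulk libraries, fewer cells of a type and less RNA per cell cannot be told apart. By that test 0 of the 13598 genes (0%) passed an adjusted p of 0.05 in either direction, whereas at an unadjusted p under 0.05 there were 790 lower genes (5.81%), with Psmb8 among them, and 1109 higher genes (8.16%), with no class I presentation gene among them. With the mouse as a replicate block, 99 genes (0.728%) passed as higher in E-cadLO and 0 (0%) as lower, again with none of the 10 genes among them. Those 99 calls depended on the mice included: with a mouse left out of the paired fit, which was chosen after seeing the data, 449 genes passed without mouse 57 (425 higher and 24 lower), 66 without mouse 58 (63 higher and 3 lower), 0 without mouse 67 and 2 without mouse 70 (both higher), with none of the 10 genes among them. In that paired fit an unadjusted p under 0.05 held for 997 lower genes (7.33%), Psmb8 and Tapbp included. DESeq2 called 61 genes lower (0.449%) and 298 higher (2.19%), and with the replicate block 225 lower (1.65%) and 1030 higher (7.57%), and none of the 10 genes was called by it.

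The mice differed from each other. In mouse 57, 9 of the 10 genes were lower in E-cadLO (48.3% of all genes tested were lower in that mouse), and the median log2 ratio of E-cadLO to E-cadHI over the 10 genes was -0.91. In mouse 70, all 10 were lower (background 44.7%), with a median of -0.57, and in mouse 67, 8 of the 10 (background 49.0%), with a median of -0.17. Mouse 58 went the other way: only Psmb8 and Tapbp were lower there (background 49.9%), and the median was 0.27. The median log2 ratio of all genes tested was between 0.00 and 0.07 in the 4 mice. Over the 4 mice, 2 of the 10 genes, Psmb8 and Tapbp, were lower in E-cadLO in every mouse, against 14.2% of all genes tested, and none was higher in every mouse, against 16.8%. The share of 2 in 10 was therefore near the background. In mouse 58, the mouse with the other direction, Cdh1 too was higher in E-cadLO than in E-cadHI.

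**Figure D1:**
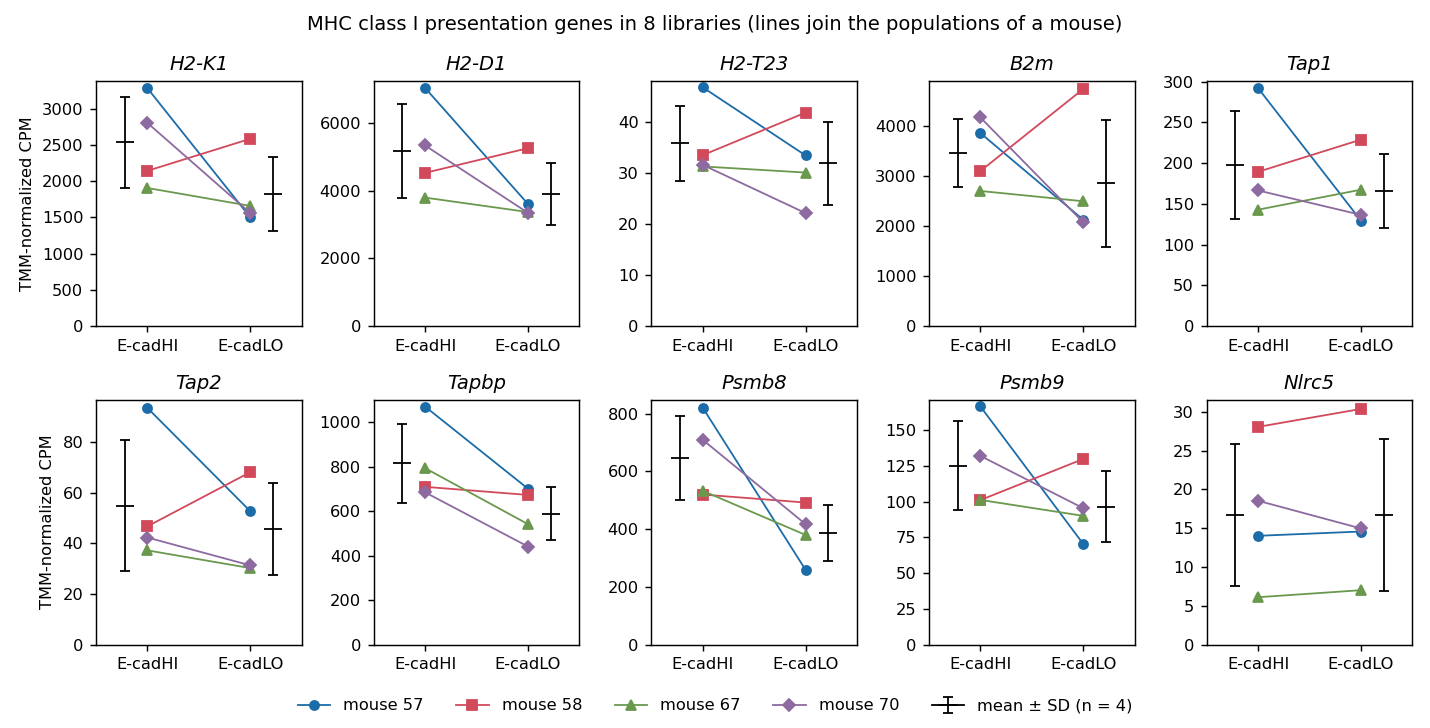
TMM-normalized CPM (vertical axes, from 0) of the 10 genes in E-cadHI and E-cadLO libraries, with a line for each of the 4 mice and the mean ± SD of each population (n = 4). The lines of Psmb8 and Tapbp go down in all 4 mice, those of mouse 58 go up for 8 of the 10 genes, and the lines of Nlrc5 keep the order of the mice.

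The classical heavy chains H2-K1 and H2-D1, which present peptides to CD8 T cells, held large shares of the counts. In TMM-normalized CPM, H2-K1 (ENSMUSG00000061232) stood at 3288, 2145, 1908 and 2808 in E-cadHI of mice 57, 58, 67 and 70, and at 1501, 2588, 1660.2 and 1561 in E-cadLO of the same mice. E-cadLO of mouse 58 was above 2 of the E-cadHI libraries, the other 3 E-cadLO libraries were below every E-cadHI library, and the groups therefore overlapped. Means were 2537 ± 629 CPM in E-cadHI and 1828 ± 511 CPM in E-cadLO (SD, n = 4 each), and the log2 fold change was -0.47 (SE 0.26; edgeR adjusted p = 0.426). H2-D1 (ENSMUSG00000073411) stood at 7040.1, 4527, 3796 and 5337 CPM in E-cadHI and at 3607, 5258, 3369.7 and 3346 CPM in E-cadLO. The same library of mouse 58 was high, while E-cadLO of mice 57, 67 and 70 lay below all of E-cadHI. Its log2 fold change was -0.41 (SE 0.26; edgeR adjusted p = 0.475), with means of 5175 ± 1393 and 3895 ± 916 CPM (SD, n = 4 each). Without E-cadLO of mouse 58, the fold changes of these heavy chains were larger in size, -0.68 for H2-K1 and -0.58 for H2-D1 (edgeR adjusted p of 0.226 and 0.300), and without mouse 57 they were smaller, -0.26 and -0.21.

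H2-D1 had more counts than H2-K1 in every library, in a proportion that varied between libraries. Not scaled by length, the ratio of the H2-D1 to the H2-K1 count was between 1.901 and 2.14 in E-cadHI and between 2.03 and 2.40 in E-cadLO. The 10 genes together held between 0.738% (E-cadLO of mouse 70) and 1.60% (E-cadHI of mouse 57) of a library's counts, most of it from H2-K1, H2-D1 and B2m. H2-D1 ranked between place 6 and place 19 of all genes by its count in a library.

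Reads of class I heavy chains can be hard to assign, since their sequences resemble each other. Of the windows of 65 bases (the read length) in the annotated transcripts of H2-K1, 4.70% also occurred in a transcript of another gene, against 6.68% for H2-D1 and 8.15% for H2-T23. For B2m, Psmb8, Psmb9 and Nlrc5 none was shared. FVB mice carry the H-2q haplotype, whereas the GRCm38 reference is from C57BL/6 mice of haplotype H-2b, and how far this affected the counts of the heavy chains or of other polymorphic genes of the region was not tested. With the counts of all 15 class I heavy chain genes named H2-K, H2-D, H2-Q and H2-T summed to 1 feature, the log2 fold change was -0.41 (SE 0.27; edgeR adjusted p = 0.484). H2-K1 and H2-D1 dominated this sum, with 47174 and 101013 counts in E-cadHI of mouse 57, where H2-T10 came next with 1783. The sum thus says little about H2-T23 or the H2-Q genes, and it does not bring back reads left uncounted.

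H2-T23 encodes Qa-1, a nonclassical class I molecule recognised by inhibitory receptors of NK cells and T cells. H2-T23 (ENSMUSG00000067212) was at 46.7, 33.4, 31.2 and 31.5 CPM in E-cadHI of mice 57, 58, 67 and 70 and 33.4, 41.8, 30.02 and 22.1 CPM in E-cadLO. The groups overlapped over most of their range, with the highest value in E-cadHI of mouse 57 and the lowest in E-cadLO of mouse 70. With means of 35.7 ± 7.39 and 31.8 ± 8.15 CPM (SD, n = 4 each), its log2 fold change was -0.17 (SE 0.24; edgeR adjusted p = 0.737), 0.00 without E-cadHI of mouse 57 and -0.31 without E-cadLO of mouse 58.

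B2m encodes beta-2 microglobulin, the light chain shared by all these molecules. B2m (ENSMUSG00000060802) was measured at 3852, 3093, 2696 and 4163 CPM in E-cadHI and at 2120.1, 4733, 2490.2 and 2067 CPM in E-cadLO. The single highest of the 8 libraries was E-cadLO of mouse 58, while the lowest 3 were the other E-cadLO libraries. Means of B2m were 3451 ± 675 and 2853 ± 1268 CPM (SD, n = 4 each), and the log2 fold change was -0.27 (SE 0.31; edgeR adjusted p = 0.667), against -0.62 (adjusted p = 0.229) without E-cadLO of mouse 58, -0.11 without mouse 57 and -0.04 (adjusted p = 0.968) without mouse 70. Per kilobase of annotated exon, the sum of H2-K1 and H2-D1 was between 0.625 and 0.859 times B2m in E-cadHI and between 0.531 and 0.775 times in E-cadLO. The size of this multiple depends on the annotated exon lengths, 2938 bases for H2-K1, 2579 for H2-D1 and 860 for B2m.

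Tap1 and Tap2 encode the paired subunits of the peptide transporter. Tap1 (ENSMUSG00000037321) was at 292, 189, 143 and 166 CPM in E-cadHI and at 129, 229, 167 and 136 CPM in E-cadLO of mice 57, 58, 67 and 70. It was lower in E-cadLO in mice 57 and 70 and higher in mice 58 and 67, and the groups overlapped, with E-cadHI of mouse 57 the highest and E-cadLO of mice 57 and 70 the lowest libraries. Its log2 fold change of -0.26 (SE 0.27; edgeR adjusted p = 0.642; means 198 ± 65.8 and 166 ± 45.4 CPM, SD, n = 4 each) was 0.08 without mouse 57 and -0.45 without E-cadLO of mouse 58. Tap2 (ENSMUSG00000024339) was at 93.4, 46.6, 37.2 and 42.2 CPM in E-cadHI and at 52.6, 68.0, 30.2 and 31.2 CPM in E-cadLO. Again E-cadHI of mouse 57 stood far above the rest, and the groups overlapped. Means were 54.9 ± 26.0 and 45.5 ± 18.2 CPM (SD, n = 4 each), with a log2 fold change of -0.27 (SE 0.36; edgeR adjusted p = 0.723), which was 0.13 without E-cadHI of mouse 57 and -0.52 without E-cadLO of mouse 58.

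Tapbp encodes tapasin, which holds the heavy chain near TAP while peptides are loaded. Tapbp (ENSMUSG00000024308) was at 1071, 709.7, 794 and 685 CPM in E-cadHI and at 701, 673, 542 and 441 CPM in E-cadLO of the 4 mice in the same order. It was lower in E-cadLO in 4 of 4 mice, although the groups overlapped, since E-cadLO of mouse 57 was above E-cadHI of mouse 70. The log2 fold change was -0.47 (SE 0.22; edgeR adjusted p = 0.370), with means of 815 ± 177 and 589 ± 121 CPM (SD, n = 4 each). It was -0.30 without E-cadHI of mouse 57, and the adjusted p was 0.227 with the replicate block. The within-mouse log2 ratios of Tapbp were -0.61, -0.08, -0.55 and -0.64, with an SD of 0.26 that was smaller than that of the other 9 genes except Nlrc5.

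Psmb8 and Psmb9 encode inducible catalytic subunits that take the place of Psmb5 and Psmb6 when the immunoproteasome is assembled. Psmb8 (ENSMUSG00000024338) was at 820.4, 519, 532 and 709 CPM in E-cadHI and at 258, 492, 379 and 417 CPM in E-cadLO of mice 57, 58, 67 and 70. Every E-cadLO library was below every E-cadHI library, which held for 1 of the 10 genes and for 4.20% of all genes tested, but in mouse 58 the values nearly met. Means were 645 ± 145 and 386 ± 97.5 CPM (SD, n = 4 each), and the log2 fold change was -0.74 (SE 0.24; edgeR adjusted p = 0.298), and -0.75 (SE 0.27; adjusted p = 0.206) with the mouse as a replicate block. By DESeq2 the adjusted p of Psmb8 was 0.0724, and 0.0590 with the block, within a range of 0.0590 to 0.68 over all alternatives. Without mouse 57, the mouse with the largest difference, the log2 fold change was -0.47, and without mouse 58 it was -0.96. Psmb9 (ENSMUSG00000096727) was at 167, 101.0, 101.2 and 132 CPM in E-cadHI and at 70.3, 129.8, 90.0 and 95.3 CPM in E-cadLO. It was lower in mice 57, 67 and 70 and higher in mouse 58, and the groups overlapped. For Psmb9 the log2 fold change was -0.38 (SE 0.23; edgeR adjusted p = 0.463; means 125 ± 31.2 and 96.4 ± 24.8 CPM, SD, n = 4 each), -0.10 without mouse 57 and -0.63 without mouse 58.

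Ratios of an inducible subunit to the constitutive subunit it replaces need no scaling for depth. The ratio of Psmb8 to Psmb5 counts was 7.08, 5.35, 6.44 and 6.59 in E-cadHI and 3.83, 4.62, 5.39 and 4.73 in E-cadLO of mice 57, 58, 67 and 70. It was lower in E-cadLO in 4 of 4 mice, and only E-cadLO of mouse 67 reached into the range of E-cadHI. The mean difference was -0.46 on the log2 scale, with an exact two-sided permutation p of 0.0571 (0.171 after Benjamini-Hochberg adjustment over the 3 ratios), where the smallest p possible for 4 against 4 libraries was 0.0286. The ratio of Psmb9 to Psmb6 was 0.208, 0.179, 0.142 and 0.157 in E-cadHI and 0.151, 0.264, 0.152 and 0.138 in E-cadLO. These groups overlapped, with E-cadLO of mouse 58 above and E-cadLO of mouse 70 below all of E-cadHI, and the mean log2 difference was 0.00 (exact two-sided permutation p = 1). For Psmb10, the inducible partner of Psmb7, the ratio was 0.682, 0.356, 0.491 and 0.528 in E-cadHI and 0.432, 0.319, 0.303 and 0.505 in E-cadLO. The groups overlapped, the ratio was lower in 4 of 4 mice, and the mean log2 difference was -0.39 (exact two-sided permutation p = 0.171, adjusted p = 0.257). The smallest p that an exact sign-flip test on 4 pairs allows is 1 in 8, which was the value for Psmb8 to Psmb5 and for Psmb10 to Psmb7. Without mouse 58, where it was highest in E-cadLO, the mean log2 difference in the Psmb9 to Psmb6 ratio was -0.18, and without mouse 57 it was 0.16.

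Per kilobase of exon, the level of Psmb8 was between 5.33 and 5.82 times that of Psmb9 in E-cadHI and between 3.98 and 4.73 times in E-cadLO. These ranges did not overlap. The size of the multiple depends on the annotated exon lengths, 3381 bases for Psmb8 and 3660 for Psmb9. This pair was chosen after its values were seen and was not tested.

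Nlrc5, the transactivator of class I genes, had the lowest level of the 10 genes per length, and it differed more between mice than between the populations of a mouse. Nlrc5 (ENSMUSG00000074151) was at 14.0, 28.05, 6.09 and 18.5 CPM in E-cadHI of mice 57, 58, 67 and 70 and at 14.6, 30.4, 7.001 and 15.0 CPM in E-cadLO. Mouse 58 was the highest and mouse 67 the lowest in both populations, and the groups overlapped over most of their range. Means were 16.7 ± 9.16 and 16.7 ± 9.80 CPM (SD, n = 4 each), and the log2 fold change was 0.00 (SE 0.52; edgeR adjusted p = 1), or 0.01 (SE 0.23; adjusted p = 0.979) with the mouse as a replicate block. Leaving out the library of mouse 58 moved it to -0.44 (E-cadLO) or 0.38 (E-cadHI). The within-mouse log2 ratios of Nlrc5 ran from -0.30 in mouse 70 to 0.19 in mouse 67. Its counts, from 82 to 365 per library, were the smallest of the 10 genes.

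The genes differed in level far more than the populations did. Per kilobase of annotated exon, B2m was the highest, with a median of 3365 CPM per kb over the 8 libraries (2404 to 5503), followed by H2-D1 with a median of 1614 and H2-K1 with a median of 689.7. Tapbp (median 191 CPM per kb) and Psmb8 (149.5) came next, then Tap1 (30.5) and Psmb9 (27.6), Tap2 (11.8) and H2-T23 (11.2), and last Nlrc5 (1.74, from 0.718 to 3.57). B2m was above H2-D1, H2-D1 above H2-K1, H2-K1 above Tapbp, Psmb8 above Tap1, Psmb9 above Tap2 and H2-T23 above Nlrc5 in all 8 libraries. The neighbours Tapbp and Psmb8 kept their order in 6 libraries, Tap1 and Psmb9 in 5, and Tap2 and H2-T23 in 6, so that these neighbours were not separated beyond their spread. Exon length was that of all annotated exons of a gene merged. It was 860 bases for B2m, 2938 for H2-K1, 3381 for Psmb8, 3660 for Psmb9 and 5476 for Tap1. Levels per length and their order therefore depend on this annotation, and which transcripts the libraries held was not tested.

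Apart from Nlrc5, the genes varied together across the libraries. The Pearson correlation of log2 CPM over the 8 libraries, which include both populations of each mouse and so are not independent, had a median of 0.784 over the 36 pairs of the other 9 genes (0.411 to 0.973). For the 9 pairs with Nlrc5 the median was 0.375 (0.0238 to 0.511). No background from pairs of other genes is given here. H2-D1 was the most like the mean of the other 9 genes (r = 0.984 over 8 libraries), and Nlrc5 the least (r = 0.373). The mean z-score of the 10 genes was highest in E-cadHI of mouse 57 (1.40) and in E-cadLO of mouse 58 (0.78), and lowest in E-cadLO of mouse 70 (-0.95) and of mouse 67 (-0.77). Genes picked for the highest r of their log2 CPM with this mean over the 8 libraries included Cyp2d9 (r = 0.967), Kdelr1 (0.951), Adprhl2 (0.946), Egflam (0.944), Irf7 (0.941), the class I pseudogene H2-T-ps (0.941), Oas3 (0.940), Dlx4os (0.936) and Tmem165 (0.929). They were taken from all 13598 genes tested, so high values of r come with the selection and are a description only. Irf7, an interferon-induced transcription factor, was at 1145, 804, 753 and 824 CPM in E-cadHI and at 465, 919, 538 and 409.9 CPM in E-cadLO, so that E-cadLO of mouse 58 was the only E-cadLO library within the range of E-cadHI.

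Psmb9, Tap1, Psmb8 and Tap2 are neighbours within the MHC class II region. On chromosome 17 of GRCm38, Psmb9 (34181988 to 34187764, minus strand), Tap1 (34187553 to 34197225), Psmb8 (34197721 to 34201454) and Tap2 (34203527 to 34216321, all 3 on the plus strand) follow each other. Psmb9 and Tap1 overlap at their 5′ ends on opposite strands, and the RefSeq starts of these genes leave 225 bases between them. Since the sources used here do not say whether counting used strand, reads from such overlaps cannot be assigned with certainty. The same holds for the antisense gene Gm20496 over Psmb8 and Tap2. Genes on the opposite strand also overlap Tapbp, B2m, H2-T23 and Nlrc5, and Zbtb22 overlaps Tapbp on the same strand. Tapbp (33915899 to 33929288), H2-K1 (33996017 to 34000333), H2-D1 (35262730 to 35267499) and H2-T23 (36029773 to 36032855) lie on the same chromosome, B2m on chromosome 2 (122147686 to 122153083) and Nlrc5 on chromosome 8 (94434356 to 94527272). The within-mouse log2 ratios of the 4 adjacent genes were lowest in mouse 57, at -1.24 for Psmb9, -1.17 for Tap1, -1.67 for Psmb8 and -0.82 for Tap2. In mouse 58 they were 0.36, 0.27, -0.08 and 0.54, and Psmb8 was thus the lowest of the 4 in that mouse too.

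**Figure D2:**
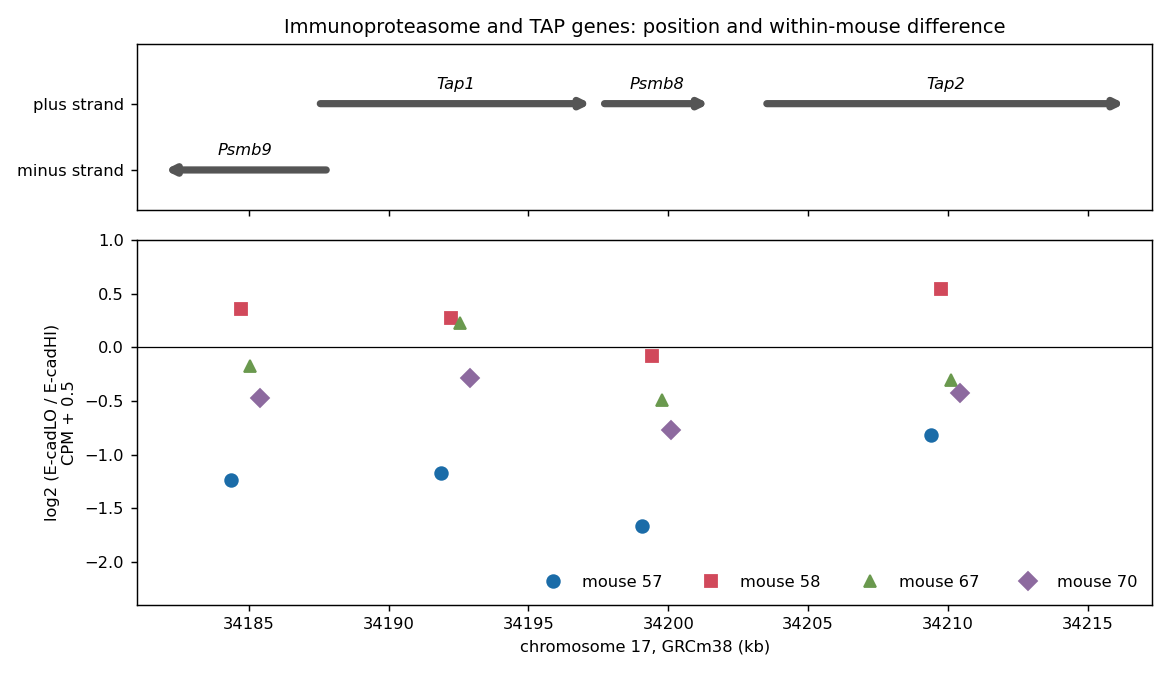
Upper part: position and strand of Psmb9, Tap1, Psmb8 and Tap2 on chromosome 17 (GRCm38, horizontal axis in kb). Lower part: log2 ratio of E-cadLO to E-cadHI in CPM plus 0.5 for each of the 4 mice, from -1.67 (Psmb8 in mouse 57) to 0.54 (Tap2 in mouse 58).

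Promoters were compared because most of these genes varied together. RefSeq promoters (GRCm38.p6, 250 bases before to 50 bases after the start) were matched for 8 of the 10 genes, while Tap2 and Nlrc5 had none. On both strands, 5 motifs were searched: the interferon-stimulated response element ISRE (GAAANNGAA), the STAT site GAS (TTCNNNGAA), kappa-B (GGGANTNCC), the CCAAT box (CCAAT) and a CRE-like motif (TGACG). ISRE letters were in B2m and H2-T23 (8.56% of all 32851 promoters), GAS letters in Psmb8 (8.30%), and kappa-B letters in H2-K1 and H2-D1 (3.95%). The CCAAT box was in 7 of the 8 genes (37.4% of all promoters), with Psmb8 as the exception, and the CRE-like motif in B2m, H2-D1, H2-K1, Psmb9 and Tap1 (20.8%). The Psmb9 and Tap1 windows overlap, and for the CCAAT box and the CRE-like motif alike their matches are the same bases, counted for each gene. The following stretches show the arrangement in the heavy chains, B2m and Psmb8, 5′ to 3′ on the gene's strand, with bases of matched motifs in capitals. H2-K1 is from chr17:34000348-34000467 (minus strand), H2-D1 from chr17:35262919-35262947 (plus strand), B2m from chr2:122147538-122147638 (plus strand) and Psmb8 from chr17:34198088-34198116 (plus strand).
H2-K1: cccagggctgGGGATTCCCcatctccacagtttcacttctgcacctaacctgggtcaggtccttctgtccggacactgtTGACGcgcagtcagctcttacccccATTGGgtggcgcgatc
H2-D1: ggctgGGGATTCCCcatctcctcagtttc
B2m: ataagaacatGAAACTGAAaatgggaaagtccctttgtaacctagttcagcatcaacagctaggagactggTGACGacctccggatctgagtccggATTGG
Psmb8: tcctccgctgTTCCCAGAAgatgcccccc
Over 133 aligned positions from 10 bases before the kappa-B letters to the second CCAAT box, H2-K1 and H2-D1 were identical at 117 (88.0%). In GENCODE M21, annotated transcripts of H2-D1 and Psmb8 start further upstream, so that these stretches lie within an exon. A match of letters is a description of the C57BL/6 reference and not a site shown to be used.

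Among genes related to these 10, none of the lists had a member that passed by edgeR, with or without the replicate block. The counts below stand against 44.9% of all genes tested with a negative log2 fold change, 14.2% lower in 4 of 4 mice and 16.8% higher in 4 of 4 mice. All 14 constitutive proteasome subunits had negative log2 fold changes (-0.59 to -0.22, median -0.39, against 0.06 for all genes tested), and 11 of the 14 were lower in E-cadLO in 4 of 4 mice. Psma5 was the subunit with the smallest p, with a log2 fold change of -0.59 (SE 0.18; edgeR adjusted p = 0.282), and those of Psma7, Psmb2, Psmb3 and Psmb4 were between -0.58 and -0.44. Psmb5, Psmb6 and Psmb7, the subunits that are replaced, had log2 fold changes of -0.28, -0.38 and -0.28. Of the 10 genes of inducible proteasome and peptide trimming, 7 were negative (median -0.35), with Psmb10 at -0.70, the activator subunits Psme1 at -0.63 and Psme2 at -0.57, the assembly factor Pomp at -0.60, and the aminopeptidase gene Lnpep at 0.84. All 10 genes of loading and folding in the ER were negative (median -0.31), among them Pdia3 (-0.58), Bcap31 (-0.59), Sec61b (-0.54), Calr (-0.50) and P4hb (-0.34).

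The 16 tested of 20 other class I heavy chains had a median of 0.00, with 8 of the 16 negative, and the median was 0.22 without E-cadHI of mouse 57 and 0.20 without E-cadLO of mouse 58. H2-T10 (-0.48), H2-T22 (-0.49) and Mr1 (-0.63) were negative, while H2-Q10 (1.29) and Fcgrt (1.64), the neonatal Fc receptor, were positive. None of the 16 was lower in E-cadLO in 4 of 4 mice, and 4 were higher in 4 of 4 mice, namely Fcgrt, H2-Q10, H2-Q1 and H2-Q7, the last 2 of which were named after their values were seen. The 14 regulators of class I transcription had a median of 0.12, which was -0.09 without E-cadLO of mouse 67, with Rela at 0.54, Irf1 at 0.38, Nfyb at 0.36, Rfx5 at -0.49 and Nfya at -0.84. For the 11 tested of 12 interferon receptor and feedback genes the median was 0.17 (0.05 without mouse 57 and 0.33 without mouse 58), with Ifnar2 at -0.37, Socs1 at 0.89, Socs3 at 0.87, Ptpn2 at 0.25 and Ifnb1 at 3.49 (SE 1.29; edgeR adjusted p = 0.311), which was at 0 in E-cadHI of mice 67 and 70. The list called class I receptors and inhibitory ligands was mixed, and not every member is one of these. Of its 11 genes 5 were tested (median 0.85, but 0.31 without E-cadHI of mouse 57 and 0.35 without mouse 67). Cd274, which encodes PD-L1, had a log2 fold change of 0.85 (SE 0.42), Lilrb4a 1.66 (SE 1.19), Klrk1 0.93 (SE 1.08), Pirb 0.34 (SE 0.80) and Raet1e -1.56 (SE 1.06). Counts were low for several of them, at most 42 in a library for Klrk1, 23 for Pirb and 18 for Raet1e.

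**Figure D3:**
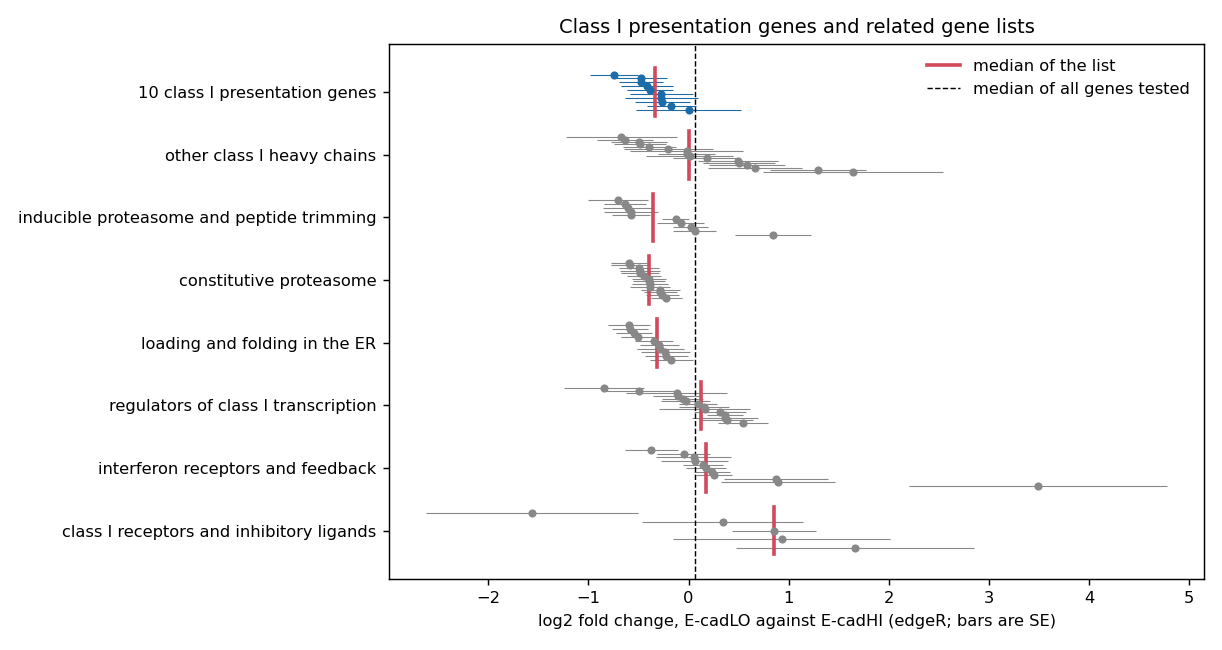
Log2 fold change of E-cadLO against E-cadHI (horizontal axis, points with SE as bars, n = 4 libraries a group) of the 10 class I presentation genes and of the tested genes of 7 related lists. The median of each list is the red line, at -0.33 for the 10 genes and -0.39 for the constitutive proteasome, and the dashed line is the median of all genes tested, 0.06.

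RNA of genes used as markers of other cells was present in the libraries and was mostly higher in E-cadLO. None of these markers passed by edgeR without the replicate block, whereas with the mouse as a replicate block 11 passed as higher in E-cadLO: 5 microglia and macrophage markers (among them Cx3cr1, adjusted p = 0.0239, and Itgam, 0.0330), the dendritic cell marker Itgax (0.0380), Gfap (0.0360) and Slc1a3 (0.0363) of astrocytes, Mbp and Mobp of oligodendrocytes (0.0311 each) and Snap25 of neurons (0.0460). Among all genes tested, the fit with the block called 99 as higher (0.728%). It called 0 genes without mouse 67 and 2 without mouse 70. Whether this RNA came from other cells or from tumor cells that express these genes, as may be the case for the mesenchymal genes among them, was not tested. Of 16 microglia and macrophage markers, all 16 had a higher mean in E-cadLO, and their summed level was 39.2, 100.1, 141 and 331 CPM in E-cadHI and 281, 261, 935 and 1175 CPM in E-cadLO of mice 57, 58, 67 and 70. In E-cadLO of mouse 57, Itgam was at 117 CPM while Ptprc, which marks leukocytes, was at 0. B and dendritic cell markers, led by Cd74, were higher for 8 of 10 (15.0, 8.61, 69.6 and 239 CPM in E-cadHI and 132, 153, 300.2 and 455 CPM in E-cadLO), and T and NK cell markers, led by Nkg7, for 9 of 10, at no more than 3.25 CPM in E-cadHI and 24.4 CPM in E-cadLO. The 24.4 CPM were in mouse 70, against 0.594, 1.63 and 3.90 CPM in E-cadLO of mice 57, 58 and 67. In mouse 58 the T and NK cell sum was lower in E-cadLO (1.63 against 1.92 CPM). No T and NK cell marker was expressed highly enough to be tested. Oligodendrocyte markers, led by Mbp, were higher for 5 of 6, at 554, 1609, 956 and 8566 CPM in E-cadHI and 1312, 3757, 4288 and 34324 CPM in E-cadLO. Cnp, the exception, did not vary like the others: in mouse 57 it made up 327 of the 554 CPM in E-cadHI, where Mog was at 0.279 CPM and Mag at 0.139 CPM, and was at 66.8 CPM in E-cadLO. Fibroblast and mural markers, led by Col1a1, were higher for 8 of 8 and reached 1201 CPM in E-cadLO of mouse 57, against 26.5 to 182 CPM in the other E-cadLO libraries and 9.13 to 63.0 CPM in E-cadHI. Astrocyte markers, led by Aldoc, were higher in mean for 6 of 6 (summed level 1133 to 3383 CPM in E-cadHI, 717 to 9379 CPM in E-cadLO). Aldoc did not vary like the other astrocyte markers: in E-cadHI of mouse 57 it was at 1005 CPM while Gfap was at 2.09 CPM and Aqp4 at 0.627 CPM, in E-cadLO of that mouse Aldoc was at 124 CPM, and the sum is therefore no measure of astrocyte content. Neuron markers, led by Snap25, were higher for 6 of 6 (3.90 to 68.0 CPM, 24.8 to 263 CPM), and endothelial markers, led by Flt1, for 7 of 8 (41.3 to 75.7 CPM, 55.6 to 98.1 CPM). Flt1 made up most of the endothelial sum (71.7 of 75.7 CPM in E-cadHI of mouse 67), while Pecam1 was at no more than 6.92 CPM and Cdh5 at no more than 5.80 CPM in any library, and Flt1 was lower in E-cadLO than in E-cadHI in mouse 57 (34.0 against 40.4 CPM). Of 6 neutrophil markers, 5 had a higher mean in E-cadLO, none of them above 7.41 CPM in any library, whereas S100a8, the most abundant, was at 22.9, 23.7, 15.2 and 15.7 CPM in E-cadHI and at 6.54, 7.68, 9.56 and 14.05 CPM in E-cadLO and so was lower in 4 of 4 mice (log2 fold change -1.03, SE 0.31; edgeR adjusted p = 0.282). The neutrophil sum was lower in E-cadLO in mice 57 and 58 and higher in mice 67 and 70. S100a8 made up 22.9 of its 23.2 CPM in E-cadHI of mouse 57. S100a9 was at 0 CPM in E-cadHI and E-cadLO of mice 57, 58 and 67, so this sum is no measure of neutrophil content. Mammary tumor epithelium markers, led by Krt18, were higher for 3 of 10, and their sum was 10189, 7762, 10343 and 9247 CPM in E-cadHI and 5728, 9577, 14512 and 8124 CPM in E-cadLO. Krt8 and Krt18 made up most of this sum (4399 and 6602 of 14512 CPM in E-cadLO of mouse 67). In that mouse Epcam, Krt19, Cldn7, Cdh1 and Elf5 were lower in E-cadLO, and Krt7, Cldn3 and Esrp1 were higher. No marker was at 0 in all 8 libraries. E-cadLO of mouse 57, with the lowest Psmb8, H2-K1 and Tap1, thus also had the lowest epithelial and the highest fibroblast sum. E-cadLO of mouse 70, with the lowest H2-D1, B2m, Tapbp and H2-T23, had the highest microglia and macrophage, oligodendrocyte and neuron sums. It also had the highest mitochondrial share. The part of these in the levels of class I genes was not tested.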

How the data were processed

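The study sequenced 8 mRNA libraries with 65-base single reads. The authors deposited whole-number counts per gene, not normalized; the paper names Hisat and Icount, and the submitters' processing notes name HISAT2 2.1.0, HTSeq and GRCm38. Strand and multi-mapping settings are not given in the sources used here. Of 32259 entries, 365 without an identifier were left out (between 5794 and 11331 counts per library). All 8 count columns were used.

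From these counts, edgeR 4.0.16 in R 4.3.3 was run with TMM, filterByExpr by population and the quasi-likelihood test without a block, with an adjusted p threshold of 0.05. CPM are TMM-normalized, and within-mouse ratios used CPM plus 0.5, count ratios counts plus 0.5. A floor of 3 counts was used, and it covers counting error only. No libraries agreed within sampling noise (smallest chi-square per degree of freedom 27.7). Exon lengths, 65-base windows and overlaps came from GENCODE M21, and promoters from RefSeq. The fits were tested on simulated data. Python 3.11, pandas 2.3, Biopython 1.88 and matplotlib 3.10 were used for the tables, the alignment and the figures.

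The labels give both populations of a mouse its number, which is where the pairing comes from: deviations from the group means correlated at 0.381, 0.248, 0.272 and 0.692 within mice 57, 58, 67 and 70, and at most at 0.144 between mice. Alternatives were DESeq2 1.42.0 and its size factors, no filter, the mouse as a replicate block, a robust fit, each mouse and each library left out, Gm42418 and mitochondrial genes removed, heavy chains summed and other pseudocounts. The block fit without each mouse, and the heavy chain sum with the block, were chosen after seeing the data.

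The genes and lists were chosen with earlier results of these data known. Named genes are the 10 members, Psmb10 and Psmb5 to Psmb7, at most 5 genes with the smallest p of each other pathway list, the most abundant marker of each cell type, and the 10 genes most like the members' mean z-score of log2 CPM (prior count 2). Of these, 2 genes are not reported here. H2-T9, of the other heavy chains, had no entry.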

Additional observations from a re-analysis of the deposited data

Results flagged for a closer look

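Single libraries stood apart from the other 3 of their group in 7 of 32 groups of 4 values tested, where chance gives about 1 in 20. E-cadLO of mouse 58 was far above the other E-cadLO libraries in H2-K1 (2588 CPM, the others 1501 to 1660), H2-D1 (5258 CPM, the others 3346 to 3607), B2m (4733 CPM, the others 2067 to 2490) and the Psmb9 to Psmb6 count ratio (0.264, the others 0.138 to 0.152). The same library held the largest share of counts on Gm42418 (14.4%, the others 2.35% to 3.93%), a gene whose annotated locus overlaps ribosomal RNA sequence, and had the lowest total count. The part of these in its class I levels was not tested. E-cadHI of mouse 57 was far above the other E-cadHI libraries in H2-T23 (46.7 CPM, the others 31.2 to 33.4) and Tap2 (93.4 CPM, the others 37.2 to 46.6). These groups share libraries and genes that vary together, so these results are not independent of each other.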

How the results depend on the processing

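No class I presentation gene passed an adjusted p of 0.05 in any fit, and H2-K1, H2-D1, H2-T23, B2m, Tapbp, Psmb8 and Psmb9 kept a log2 fold change of 0.00 or below in all of them, with B2m between -0.67 and -0.04. Psmb8 ranged from -0.96 to -0.47 and Tapbp from -0.58 to -0.30, and their smallest adjusted p-values were 0.0590 and 0.0873, in DESeq2 with the replicate block. With 1 library or mouse left out, Tap1 ranged from -0.46 to 0.08, Tap2 from -0.58 to 0.13 and Nlrc5 from -0.44 to 0.38. Nlrc5 was 0.00 with no filter, with the sign reversed. The change of sign in Tap1 and Tap2 came with E-cadHI of mouse 57 left out. The number of genes called, 0 in the edgeR fit, was 23 with no filter, 359 by DESeq2, 99 with the replicate block and 1255 by DESeq2 with the replicate block. With a library or mouse left out of the fit without the block it was 0, except 13 without E-cadLO of mouse 70. With the block it was between 0 (without mouse 67) and 449 (without mouse 57), with 66 without mouse 58 and 2 without mouse 70 (24 of the 449 and 3 of the 66 lower), all chosen after seeing the data. The cause was not tested. The replicate block changed no call among the 10 genes. The median of the 10 genes was between -0.61 (without mouse 58) and -0.11 (without mouse 57) with a library or mouse left out, and that of class I receptors and inhibitory ligands, 0.85, between 0.31 and 1.33. That of other heavy chains, 0.00, was between -0.06 and 0.22, that of the regulators, 0.12, was between -0.09 and 0.20, and that of interferon receptors and feedback, 0.17, between 0.04 and 0.33. The Psmb9 to Psmb6 difference, 0.00, was between -0.18 and 0.16 with each mouse left out, and the pseudocounts moved no ratio or within-mouse level beyond the spread between mice. Of the 10 genes, Nlrc5 had the smallest counts, at most 365 in a library.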
